A study of Mus musculus with 2 samples.

Results

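Endothelial cells with transcripts of Plvap and Lrg1 were taken from an infarcted mouse heart, where 173 of 8441 cells met the rule, or 2.05% (exact 95% interval 1.76% to 2.37%). A member had at least 4 unique molecular identifiers (UMIs, counted transcript molecules) summed over Pecam1, Cdh5, Kdr, Egfl7 and Emcn, and at least 2 summed over Plvap and Lrg1. It had none of Npr3, at most 3 of C1qa, C1qb and C1qc, at most 1 of Mmrn1, Reln and Prox1, and at most 25% of its UMIs from mitochondrially encoded genes. Npr3 marks endocardial cells, C1q genes macrophages, and Mmrn1, Reln and Prox1 lymphatic endothelium. Because the rule read measured UMIs of these genes, their levels below describe the selection and are not findings.

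Single cells of whole hearts were profiled by Drop-seq, a droplet method that tags transcripts with a cell barcode and a UMI. All animals were wild-type C57BL6/J males aged 8 to 10 weeks at the start. The MI library came from 1 heart taken 14 days after its left anterior descending artery was ligated, and the sham library from 4 pooled hearts taken 14 days after the same surgery with the suture left loose. With 1 library per group, infarction, animal and library cannot be told apart, no test between groups was possible, and every interval covers counting error only.

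Plvap encodes the protein that forms the diaphragms of endothelial fenestrae and caveolae, and it is normally sparse in the continuous capillaries of heart muscle. Lrg1 encodes a secreted leucine-rich glycoprotein that modulates TGF-beta signalling in vessels. Cardiac capillaries take up fatty acids for the myocytes, while venules are where leukocytes roll and adhere, and growing vessels are led by tip cells that lay down new basement membrane.

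Within the MI library the members were 173 of the 280 endothelial cells that met all limits other than the Plvap and Lrg1 minimum, or 61.8% (55.8% to 67.5%). Under the same limits the sham library gave 10 of 1760 cells, or 0.568% (0.273% to 1.04%). The members had a median of 3551 UMIs and 1697 genes per cell, against medians of 2304 UMIs in the 107 MI endothelial cells with at most 1 Plvap or Lrg1 UMI, called the other MI endothelial cells here, and 1434 UMIs in the 2366 sham endothelial cells. The sham cells were all those with at least 2 endothelial UMIs and no Npr3. At the limits, 30 members had exactly 2 Plvap and Lrg1 UMIs, while 31 cells just outside had 1 and 76 had none. A further 155 cells were outside only through Npr3, 19 of them through 1 UMI. Of the members, 106 (61.3%) held both transcripts, 57 (32.9%) Plvap alone and 10 (5.78%) Lrg1 alone. No member shared its barcode with the sham library, and 5 members were called as doublets and kept.

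The endothelial label held on genes the rule did not read. All 14 of 14 other pan-endothelial markers were detected in members, with a summed level of 4303 UMIs per 1000000 UMIs (CPM) against 4144 CPM in sham endothelium. The sum was 59.0 CPM in MI lymphocytes and 207 CPM in MI macrophages, cells that should lack them. Both immune groups were chosen to have few UMIs of the endothelial genes of the rule. Lymphocyte markers were near absent, with UMIs for 2 of 7 genes and 3.39 CPM in sum. Cardiomyocyte markers reached 33.9 CPM (4 of 8 genes) and mural markers 266 CPM (8 of 8). All 8 fibroblast markers had UMIs and summed to 3611 CPM in members, 1534 CPM in sham endothelium, 11648 CPM in the other MI endothelial cells and 13589 CPM in MI lymphocytes. The sum was 5255 CPM in MI macrophages, so the 2 immune classes differed from each other, and both exceeded the members. Median depth was 1333.5 UMIs in MI lymphocytes and 1887 in MI macrophages. Levels of fibroblast, matrix and contractile genes are given below beside those in these immune cells, and the part of free RNA in them was not tested.

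The genes that name the population differed in how far they set it apart. Plvap (chr8:71497765-71511752 in GENCODE vM21 on mm10, protein coding) stood at 826 CPM in members, 61.6 in the other MI endothelial cells and 14.3 in sham endothelium. Lrg1 (chr17:56119678-56122001) stood at 664, 14.8 and 12.2 CPM. The rule sets both orders. Col18a1 (chr10:77052178-77166548), the collagen XVIII chain from which endostatin is cut, was not part of the rule. Its level was 529 CPM in members (468 UMIs) and 409 in the other MI endothelial cells, against 20.6 in sham endothelium and 13.1 in MI lymphocytes. It was thus high in both MI groups, 4.68 log2 units (4.36 to 5.01) above sham in members and 0.37 (0.11 to 0.64) above their MI neighbours. Igfbp3 (chr11:7206086-7213923), a carrier of insulin-like growth factors, was 1001.7 CPM in members, 126 in sham endothelium and 1521 in the other MI endothelial cells. Igfbp3 was therefore lower in members than in the other MI endothelial cells by 0.60 log2 units, and 1 cell held 31.4% of the members' Igfbp3 UMIs. Cdh5 (chr8:104101625-104144511), vascular endothelial cadherin, was part of the rule and lay between 641 and 884 CPM in members, other MI endothelium and sham.

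**Figure D1:**
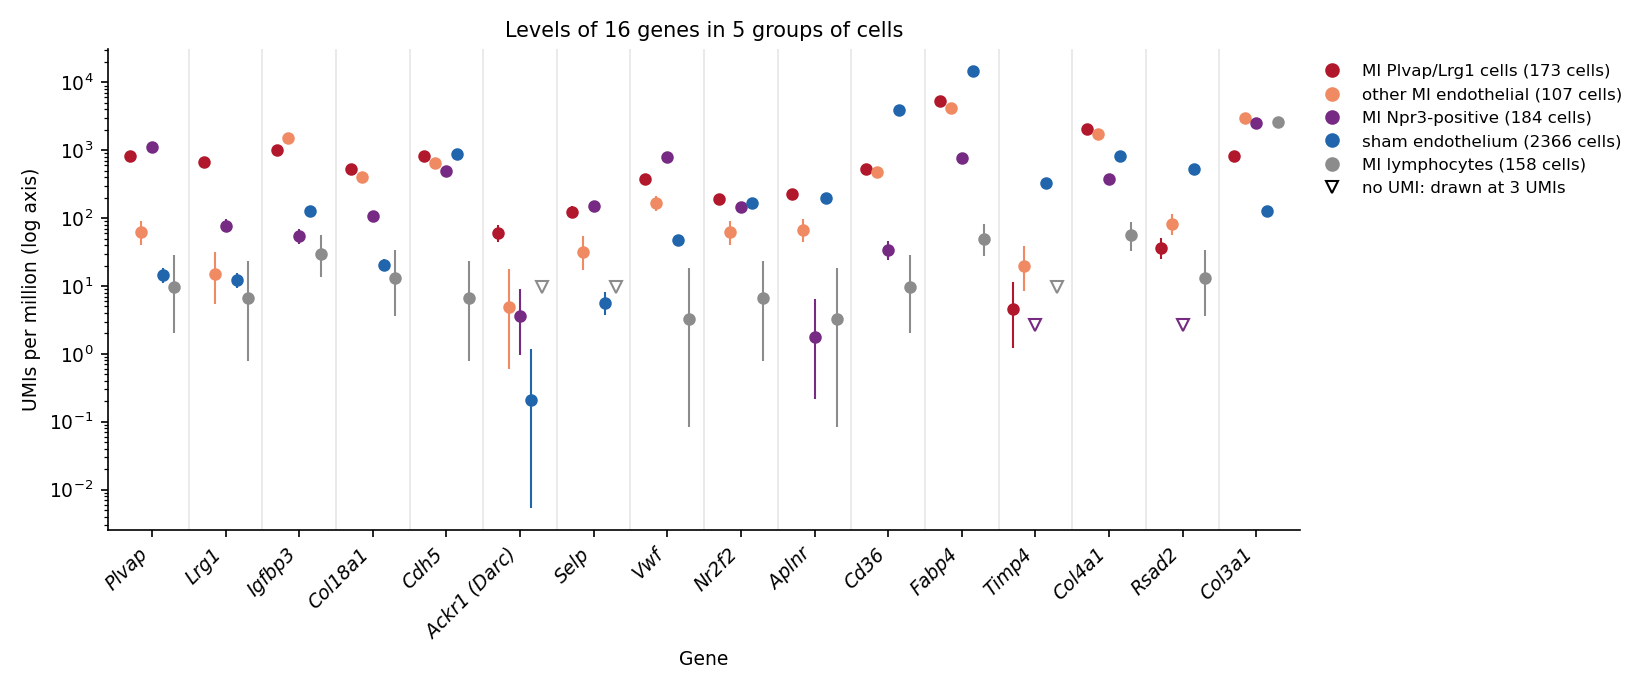
Levels of 16 genes in CPM (log axis) in members, other MI endothelial cells, Npr3-positive MI endothelial cells, sham endothelium and MI lymphocytes, with exact Poisson 95% bars; open triangles mark groups without a UMI, drawn at 3 UMIs. Col18a1, Selp and Vwf stand higher in members than in sham endothelium, and Cd36, Fabp4, Timp4 and Rsad2 stand lower.

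At matched depth both MI groups remained above sham for Col18a1 and Igfbp3, while the order of the 2 MI groups for Col18a1 turned with the depth chosen. After each cell was thinned to 500 UMIs, with no cell left out, Col18a1 was found in 18.5% of members (13.0% to 25.1%; 64.2% before thinning), 16.8% of the other MI endothelial cells and 0.845% of sham endothelial cells (0.517% to 1.30%; 3.17% before thinning). Its share in MI lymphocytes was 0.633%, in cells with the lower median depth given above. Igfbp3 was found in 17.3% of members, 24.3% of other MI endothelial cells and 5.87% of sham cells. At 1000 UMIs, with 5 members, 8 other MI endothelial cells and 619 sham cells left out, Col18a1 was found in 31.5%, 35.4% and 1.95%, and Igfbp3 in 42 of 168, 41 of 99 and 193 of 1747 cells. For both genes, at both depths, the intervals of the 2 MI groups overlapped.

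Members were next set against sham endothelium across 11382 genes with at least 20 UMIs in either group. Of these, 7.04% were at least 2-fold higher in members and 18.1% at least 2-fold lower, and the median gene differed by -0.15 log2 units. The sham cells carried no limit on macrophage or lymphatic transcripts. Their 10 macrophage markers summed to 999 CPM, against 133 CPM in members and 113 CPM in sham cells held to the same limits. Their 7 lymphatic markers summed to 1009 CPM, against 158 CPM in members (6 of 7 genes) and 123 CPM in sham cells held to the same limits. The sums of 2 other marker sets did not fall under those limits. Their 5 erythroid and platelet markers summed to 437 CPM, against 14.7 CPM in members (3 of 5 genes) and 527 CPM in sham cells under the limits. Their 8 mural markers summed to 1748 CPM, against 266 CPM in members and 1883 CPM in sham cells under the limits. The part of these transcripts in other genes that were lower in members was not tested.

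Capillary genes were lower in members almost throughout. Of 13 measured genes of fatty acid handling, 12 were at least 2-fold lower in members and 0 higher, with a median of -2.14 log2 units. Cd36 (chr5:17781690-17888801), the fatty acid transporter of capillary endothelium, stood at 521 CPM in members and 3890 CPM in sham endothelium, 2.90 log2 units lower (interval -3.04 to -2.77). At 500 UMIs per cell it was found in 24.3% of members (18.1% to 31.4%; 50.9% before thinning) and in 77.0% of sham cells (75.3% to 78.7%; 92.6%). Fabp4, the intracellular fatty acid carrier, was 5386 CPM against 14572 CPM. Lpl, lipoprotein lipase, was 97.2 against 1196 CPM, and Aqp7, a glycerol channel, had 3 UMIs in members against 585 in sham. The transcription factors Meox2 and Tcf15, which act together in fatty acid uptake of cardiac endothelium, were lower by 2.14 and 4.22 log2 units. Gpihbp1, which carries lipoprotein lipase across the capillary wall, was the exception within 2-fold, at 822 CPM against 1199 CPM. With the sham cells held to the member limits, Cd36 was 4211 CPM there and Fabp4 15623 CPM, so the difference was as large.

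Other capillary genes followed the same order, with 13 of 15 at least 2-fold lower, 0 higher and a median of -2.43 log2 units. Timp4, an inhibitor of matrix metalloproteinases, had 4 UMIs in 3 members and 1549 UMIs in sham endothelium, 4.52 against 326 CPM. Clic5, an intracellular chloride channel family protein, was 24.9 against 834 CPM, and Car4, a membrane-bound carbonic anhydrase, 5.65 against 220 CPM. The butyrophilin-like Btnl9 was 37.3 against 691 CPM. Kdr, the main receptor for VEGF-A, was read by the rule and still stood lower, at 312 against 919 CPM. Without Kdr the list median was -2.60 over 14 genes. Flt1, the decoy-like VEGF receptor, was 704 against 1155 CPM, within 2-fold. Some of the named genes lowest in members were not on the capillary lists. The plasminogen-binding lectin Clec3b and the sphingosine receptor S1pr3 had no UMI in any member. In sham they had 310 and 247 UMIs, in 143 and 136 of 2366 cells. Set at 3 UMIs, their ratios were -4.27 and -3.94 log2 units or lower. Slc28a2, a nucleoside transporter, was 3.39 against 174 CPM. Gsn, gelsolin, was 45.2 against 1029 CPM, with UMIs in 598 sham cells, and stood at 842 CPM in sham cells under the member limits. At least 4 UMIs summed over the fibroblast genes Pdgfra, Dcn, Lum and Tcf21 were found in 168 of the sham cells. The part of these cells in the genes above was not tested.

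The diaphragm and caveola genes did not move together. Plvap aside, 2 of the 8 other measured members of that list stood 2-fold or more above sham and 4 below. Their median was -0.94 log2 units, or -0.67 over all 9 with Plvap, which the rule read. Ehd4, a membrane-remodelling ATPase, was 832 CPM in members against 143 CPM in sham, and the caveolar coat protein Prkcdbp (cavin-3) was 482 against 143 CPM. The coat proteins Cav1, Ptrf (cavin-1) and Sdpr (cavin-2) were lower, at 519 against 1203, 494 against 1215 and 1256 against 5576 CPM. The list that Plvap belongs to thus held values on both sides.

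Venous genes stood higher in members than in sham endothelium. Of 11 measured, 6 were 2-fold or more above sham and 0 below, and the median was 2.82 log2 units. Without Lrg1, which the rule read, 5 of 10 were above and the median was 1.74. Vwf (chr6:125546774-125686679), the platelet-binding von Willebrand factor, was 378 CPM in members, 46.9 in sham endothelium and 3.28 in MI lymphocytes, a ratio of 3.01 log2 units (2.76 to 3.26). Selp, P-selectin, was 124 against 5.68 CPM, or 4.45 log2 units (3.83 to 5.12). Ackr1 (chr1:173331886-173333750, listed as Darc), the atypical chemokine receptor of venules, had 53 UMIs in 22 members and 1 UMI in sham, or 59.9 against 0.21 CPM, a ratio of 8.15 log2 units (5.61 to 13.48). Tmem252 was 123 against 2.74 CPM. Nr2f2, the transcription factor of venous identity, did not differ beyond its interval, at 189 against 170 CPM (0.15, -0.09 to 0.40). Ephb4, the venous ephrin receptor, was 137 against 107 CPM.

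At 500 UMIs per cell, Vwf was found in 19.1% of members (13.5% to 25.7%; 57.8% before thinning) and 2.70% of sham cells (2.09% to 3.44%; 5.62%), and Selp in 10.4% and 0.254%. Vwf and Selp had no UMI in 158 thinned MI lymphocytes.

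Genes of leukocyte recruitment were mixed, with 5 of 16 at least 2-fold higher, 3 lower and a median of -0.36 log2 units. Selp and Darc, also on the venous list, were 2 of the 5. Sele, E-selectin, was 39.6 against 3.37 CPM and Icam1, a ligand of leukocyte integrins, 91.6 against 41.7 CPM. Vcam1 was 70.1 against 61.9 CPM, within its counting error. Chemokine genes gave 4 higher and 4 lower of 14. Ccl2, a monocyte attractant, was 107 CPM in members, 25.5 in sham and 42.6 in MI lymphocytes, and Cxcl9, an interferon-induced T cell attractant, was 2.26 against 113 CPM.

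Arterial genes gave 4 of 15 at least 2-fold higher, 1 lower and a median of -0.07. The 4 were the gap junction proteins Gja4 (164 against 15.4 CPM) and Gja5 (48.6 against 8.84), the kinase Bmx (79.1 against 18.7) and the elastic fibre protein Fbln5 (160.5 against 38.5). The Notch pathway members of the arterial list, Hey1, Dll4 and Jag1, differed by less than 2-fold, and the ligand Jag2 was lower at 10.2 against 40.0 CPM. Of 17 tip cell genes, 5 were at least 2-fold higher, 1 was lower, and the median was 0.39 log2 units. Esm1, endocan, was 56.5 against 5.05 CPM, and Angpt2, a destabilising ligand of the Tie2 receptor, 53.1 against 21.9 CPM. Apln (chrX:48025146-48034853), the apelin peptide, was 105 against 80.0 CPM, and its receptor Aplnr (chr2:85136225-85139923) was 227 against 198 CPM. Both apelin genes lay within 2-fold of sham. The VEGF, angiopoietin, Notch and apelin receptors as a list gave 0 of 19 higher, 5 lower and a median of -0.61. Without Kdr, which the rule read, the median was -0.51. Among all measured genes 7.04% were higher and 18.1% lower.

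Basement membrane genes stood higher in members, with 6 of 15 at least 2-fold higher, 1 lower and a median of 0.98 log2 units. The collagen IV chains Col4a1 and Col4a2 were 2044 against 835 CPM and 1614 against 572 CPM, with 56.3 and 36.0 CPM in MI lymphocytes. Col15a1, a collagen of the outer basement membrane, was 302 against 88.6 CPM, though 1 cell held 22.8% of its member UMIs. The laminin chains did not share a direction, since Lama5 was 57.7 against 25.5 CPM, Lama4 268 against 242 and Lamb2 31.7 against 84.4.

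Of 27 measured matrix and matrix remodelling genes, 17 were at least 2-fold higher, 2 lower, and the median was 1.93 log2 units. Several of these were no higher in members than in MI lymphocytes. Fn1, fibronectin, was 824 CPM in members, 39.1 in sham, 838 in MI lymphocytes and 515 in MI macrophages. Lox, the collagen cross-linking oxidase, was 141, 4.63, 357 and 178 CPM, with 32% of member UMIs in 1 cell. Of the named genes, both secreted matrix proteins of scar fibroblasts, Cthrc1 was 88.2 CPM in members, 219 in MI lymphocytes and 105 in MI macrophages. Tnc was 64.4, 380 and 24.7 CPM, with its lymphocyte UMIs in 8 cells. Of the member UMIs, 1 cell held 23.1% for Cthrc1 and 1 cell held 50.9% for Tnc. Lox and Cthrc1 in members thus lay under both immune classes, and Fn1 and Tnc between them. Other members of the list were above the lymphocyte level. Tgfbi, an integrin-binding matrix protein, was 246 CPM in members, 23.6 in sham and 55.7 in MI lymphocytes, Adamts4, an aggrecan-cleaving protease, 96.1, 7.37 and 9.83 CPM, and Thbs1, thrombospondin-1, 418, 13.5 and 219 CPM. The mesenchymal list gave 8 of 16 at least 2-fold higher, 4 lower and a median of 1.25, but its collagen genes, Acta2, Tagln and Cnn1 were all under the lymphocyte level, with Col3a1 at 825 CPM against 2630 and Acta2 at 352 against 907. In MI macrophages these were 1049 and 223 CPM. At 500 UMIs per cell the median of the 11 mesenchymal genes that could be measured was -0.53.

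Growth factor genes were higher in part. In the insulin-like growth factor list 6 of 10 were at least 2-fold higher, 1 lower and the median was 1.45 log2 units. The insulin receptor Insr was 64.4 against 17.3 CPM and Igfbp4, a binding protein, 398 against 109 CPM. Igf1 was 228 against 58.9 CPM, and Igf2 216 against 57.7 CPM with 29.3% of member UMIs in 1 cell. In the TGF-beta and BMP list 8 of 24 were higher, 3 lower and the median was 0.19. The TGF-beta feedback gene Pmepa1 was 318 against 69.0 CPM and Bmp4 128 against 37.5 CPM, while Id1, a direct BMP target, was lower at 235 against 579 CPM.

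Vasoactive and coagulation genes gave 8 of 17 at least 2-fold higher, 1 lower and a median of 0.83 log2 units. Edn1, the precursor of the vasoconstrictor endothelin-1, was 579 CPM in members, 64.4 in sham and 3.28 in MI lymphocytes, 3.17 log2 units (2.96 to 3.38) above sham. Ece1, which cleaves that precursor, was 1110.2 against 427 CPM. Procr, the endothelial protein C receptor, was 145 against 10.52 CPM, whereas thrombomodulin (Thbd), its partner in protein C activation, was 103 against 362 CPM. The 2 genes of that anticoagulant step therefore stood on opposite sides of sham. Nos3, endothelial nitric oxide synthase, was 94.97 against 103 CPM, within its counting error.

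Further named genes stood above sham. Olfml2a, an olfactomedin-like secreted protein, was 79.1 against 1.68 CPM, Tmem158 139 against 4.42 CPM and Fam167b 158 against 5.89 CPM, and Fam167b was found in 69 members. H19, an imprinted non-coding RNA, was 194 against 4.84 CPM but 118 CPM in MI lymphocytes.

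Interferon-response genes were lower in members, with 18 of 19 at least 2-fold lower, 0 higher and a median of -2.37 log2 units. Rsad2, viperin, was 36.2 against 527 CPM, Ifit2 6.78 against 119 CPM and Iigp1, an immunity-related GTPase, 62.2 against 391 CPM. In sham cells under the member limits Rsad2 was 572 CPM and Iigp1 397 CPM. In the other MI endothelial cells Rsad2 was 81.3 and Iigp1 71.5 CPM, so the low levels were common to both MI groups. Antigen presentation genes gave 10 of 11 lower and a median of -1.51. B2m, the light chain of class I molecules, was 2290.5 against 4917 CPM, under the 3462 CPM of MI lymphocytes. The class II invariant chain Cd74 was 7.91 against 307 CPM, and 60.0 CPM in sham cells under the member limits.

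Endothelial transcription factors gave 1 of 24 higher and 5 lower, with a median of -0.51. Among all measured genes 7.04% were higher and 18.1% lower, and the counts of this list and of the junction list below are small beside these shares. The ETS factor Erg, which maintains endothelial identity, was within its counting error, at 352 against 366 CPM. The flow-responsive factors Klf2 and Klf4 were lower at 189.9 against 578 CPM and 363 against 983 CPM. In the junction list 3 of 18 were higher, 3 lower and the median was 0.19. Cdh5, Pecam1 and Emcn of this list were read by the rule, and the median of the other 15 was 0.18. The tight junction protein Cldn5 stood at 52.0 against 273 CPM. The sialomucin Emcn, one of the 3 higher, stood at 788 against 292 CPM. Cdh2, N-cadherin, was 94.97 CPM in members but 98.2 CPM in MI lymphocytes.

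**Figure D2:**
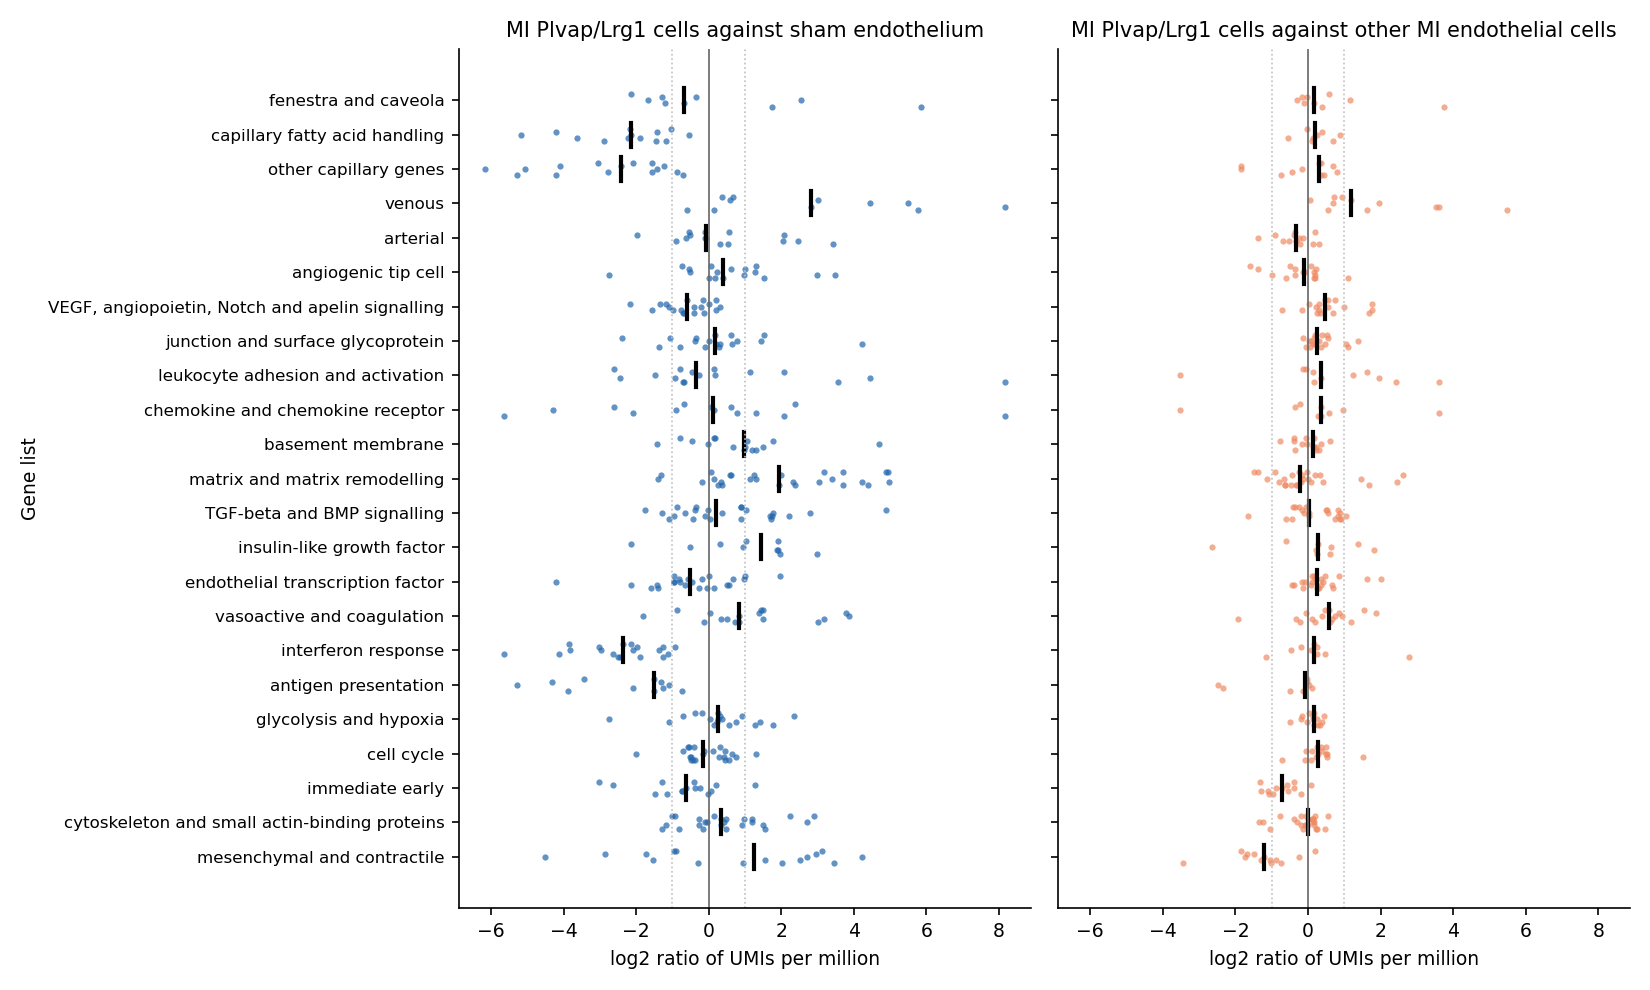
Log2 ratio of each measured gene of 23 gene lists, members over sham endothelium (left) and members over the other MI endothelial cells (right); points are genes, black bars list medians and dotted lines 2-fold. Against sham the capillary and interferon lists lie to the left of 0 and the venous, matrix and basement membrane lists to the right; against the other MI cells most medians lie near 0 and the venous list stays to the right.

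The comparison inside the MI library held heart, surgery and library constant. Of 6126 genes with at least 20 UMIs in members or in the other MI endothelial cells, 6.11% were at least 2-fold higher in members, 3.26% were lower, and the median was 0.08 log2 units. The 14 other pan-endothelial markers summed to 4303 CPM in members and 3027 CPM in the other MI endothelial cells. At least 3 of the 5 endothelial genes of the rule were found in 95.4% of members and 79.4% of the others. The part of this in the differences below was not tested. Several lists that differed from sham had medians near 0 here. The capillary fatty acid list gave 0 of 8 past 2-fold in either direction with a median of 0.19, and the basement membrane list 0 of 15 with a median of 0.13. Cd36 was 521 against 481 CPM and Col4a1 2044 against 1767 CPM. The other capillary list gave 0 of 11 higher, 2 lower and a median of 0.31. The low fatty acid genes and high collagen IV were thus common to members and the other MI endothelial cells.

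Venous genes stood higher in members than in the other MI endothelial cells. Of 11 measured, 6 stood 2-fold or more above them and 0 below, and the median was 1.19 log2 units. Lrg1 is on this list and was read by the rule, and without it 5 of 10 were higher and the median was 1.06. Darc was 59.9 against 4.93 CPM (3.60, 1.68 to 6.69), Selp 124 against 32.0 CPM (1.96, 1.12 to 2.91) and Vwf 378 against 165 CPM (1.19, 0.81 to 1.59). Here Nr2f2 did differ, at 189 against 61.6 CPM (1.62, 1.00 to 2.28). The share of cells with Nr2f2 did not show this order at 500 UMIs per cell, with 6.36% of members, 5.61% of other MI endothelial cells and 5.96% of sham cells, whereas at 1000 UMIs it was 17.9%, 5.05% and 12.3%. Leukocyte adhesion genes gave 5 of 11 higher and 1 lower, with Sele at 39.6 against 7.39 CPM, Icam1 at 91.6 against 29.6 CPM and Vcam1 at 70.1 against 29.6 CPM.

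The VEGF, angiopoietin, Notch and apelin signalling list gave 3 of 17 at least 2-fold higher in members than in the other MI endothelial cells, 0 lower and a median of 0.48. After thinning to 500 UMIs the median was -0.10. The 3 were Aplnr at 227 against 66.5 CPM (1.77, 1.19 to 2.41), Calcrl, the receptor for adrenomedullin and CGRP, at 217 against 64.1 CPM, and Tek, the angiopoietin receptor Tie2, at 166 against 51.8 CPM. For Aplnr and Calcrl the members were within 2-fold of sham endothelium. Entpd1 (CD39), which hydrolyses extracellular ATP and ADP, was 393 against 108 CPM (1.86, 1.40 to 2.35) and was found in 108 of 173 members. Pgm5, a phosphoglucomutase-like adhesion protein, was 71.2 against 7.39 CPM. Cmah, which hydroxylates sialic acid, was 82.5 against 4.93 CPM but 88.4 CPM in MI lymphocytes. Inhba, an activin subunit, was 94.97 against 14.8 CPM with 56.0% of member UMIs in 1 cell.

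Named genes lower in members than in the other MI endothelial cells included mesothelial and fibroblast genes. Lrrn4, Nkain4 and Upk3b, all mesothelial, were 10.2 against 199.6, 6.78 against 148 and 12.4 against 131 CPM, and the fibroblast proteoglycan Dcn was 318 against 1807 CPM. All 7 measured fibroblast markers and all 4 measured mesothelial markers were at least 2-fold lower, and the summed mesothelial level was 37.3 against 473 CPM (3 of 5 and 5 of 5 genes with UMIs). Among the cells themselves, 17 of 173 members and 14 of 107 others had at least 4 UMIs summed over Pdgfra, Dcn, Lum and Tcf21. At least 2 UMIs summed over Upk3b, Lrrn4, Nkain4 and Msln were found in 2 members and 7 others. Without such cells the number of genes lower in members went from 200 (3.26%) to 83. Dcn turned to 0.46 log2 units, but it is a gene of that filter, so its turn is no separate finding. Of tip cell genes, Pgf, a VEGF family ligand, and Unc5b, a netrin receptor, were lower in members at 32.8 against 98.6 and 43.0 against 111 CPM.

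Several of these genes were also ordered by the number of Plvap and Lrg1 UMIs in a cell. Over MI endothelial cells with 0, 1, 2 to 3, 4 to 7 and 8 or more such UMIs (76, 31, 56, 59 and 58 cells), Selp went from 30.1 to 37.3, 62.4, 118 and 169 CPM. Nr2f2 went from 56.9 to 74.7, 78.1, 177 and 269 CPM. Entpd1 went from 97.1 to 140.0, 207, 291 and 578 CPM. Calcrl went from 43.5 to 121, 140.5, 181 and 289 CPM, and Darc was 107 CPM in the highest class, 6.70 CPM in the lowest and without a UMI in the 31 cells of the next. The tip cell genes Pgf and Unc5b were lowest in the class with 8 or more, with Pgf at 121, 37.3, 85.9, 25.3 and 2.56 CPM and Unc5b at 131, 56.0, 93.7, 29.5 and 17.9 CPM. Igfbp3 was highest at 2 to 3 UMIs, with 2385 CPM, and 207 CPM at 8 or more, but 1 member held 31.4% of the members' Igfbp3 UMIs. The part of that cell in this order was not tested. The summed fibroblast level was 15217.5 CPM in the cells with none and 1699 to 4086 CPM in the other classes. Cdh5, which the rule read, showed no such order, at 573, 831, 1058, 872 and 639.6 CPM. The 14 other pan-endothelial markers, which the rule did not read, summed to 2388, 4808, 3986, 3955 and 4722 CPM. The part of the lower sum in cells with none in the orders above was not tested. Deeper cells hold more UMIs of any gene, and the cells with 8 or more had a median of 5191.5 UMIs against 2294 with none.

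**Figure D3:**
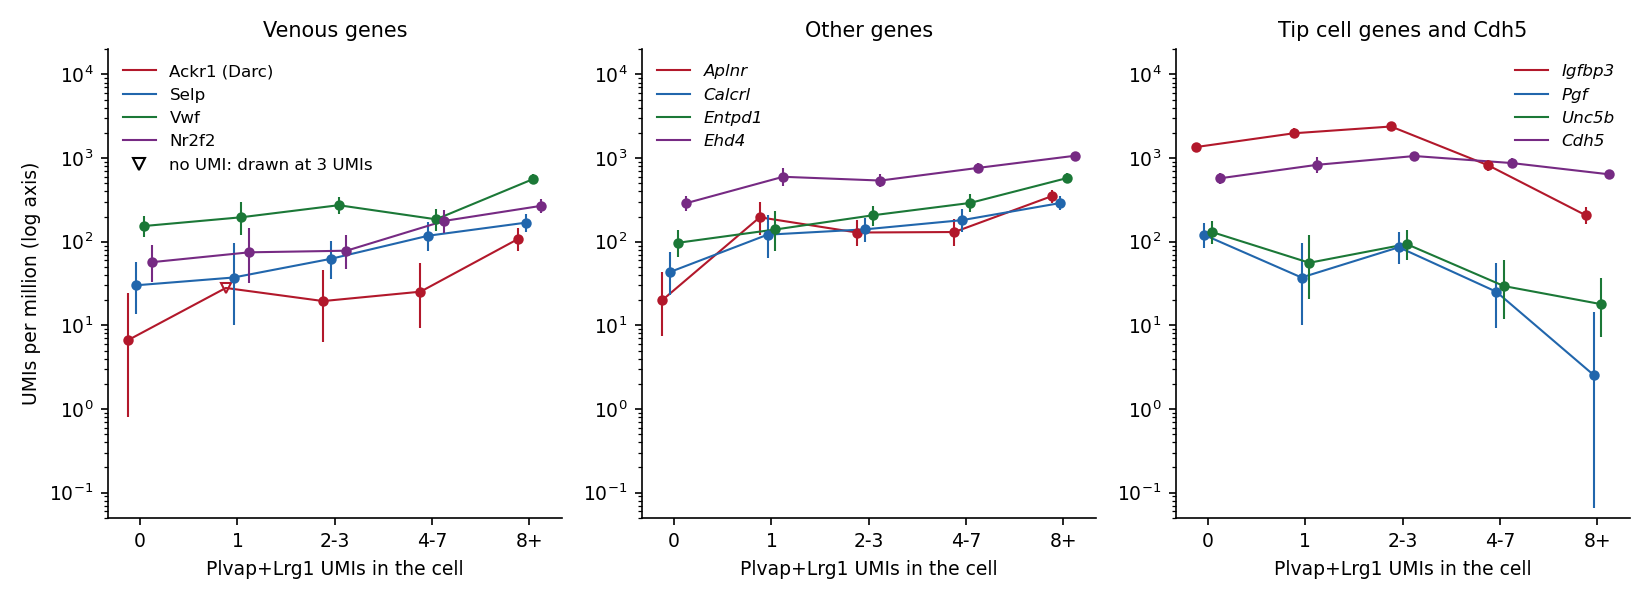
Levels in CPM (log axis) of venous genes, other genes, and tip cell genes with Cdh5 in MI endothelial cells grouped by their summed Plvap and Lrg1 UMIs, with exact Poisson 95% bars; the open triangle marks a class without a UMI, drawn at 3 UMIs. Selp, Nr2f2 and Entpd1 stand higher in the classes with more UMIs, and Pgf and Unc5b lower.

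Members were not uniform in which of the 2 genes they held. Across 4433 genes with at least 20 UMIs in members with both transcripts or with Plvap alone, 7.4% were at least 2-fold higher and 3.77% lower in cells with both. Because Lrg1 is in the venous list, its own difference is set by the split. Of 11 venous genes, 8 were at least 2-fold higher in cells with both and 0 lower, with a median of 1.61 log2 units, or 7 of 10 and 1.504 without Lrg1. Darc was 95.3 CPM (50 UMIs) against 1 UMI, Vwf 496 against 162 CPM and Nr2f2 261 against 81.1 CPM. Aplnr was 315 against 72.1 CPM, Cd36 652 against 219 CPM and Fabp4 6708 against 2808 CPM. Rgs5, a G protein regulator best known from pericytes, was 280.3 against 9.01 CPM, in 14 cells of the first kind and 1 of the second, with 34.0% of member UMIs in 1 cell. The 8 mural markers summed to 385 against 90.1 CPM, and their part in the other differences was not tested. Cells with Plvap alone were higher for 7 of 16 tip cell genes and for Igfbp3 at 1649 against 547 CPM, with 31.4% of the members' Igfbp3 UMIs in 1 cell. They were also higher for Edn1 at 868 against 410 CPM, for the neuregulin Nrg1 at 96.1 against 5.72 CPM and for Cdh2 at 204 against 30.5 CPM. The small proline-rich genes Sprr2a1, Sprr2a2 and Sprr2a3 also stood higher there, but 69.5% to 74.7% of their member UMIs were in 1 cell and their near-identical sequences make the split among them uncertain.

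**Figure D4:**
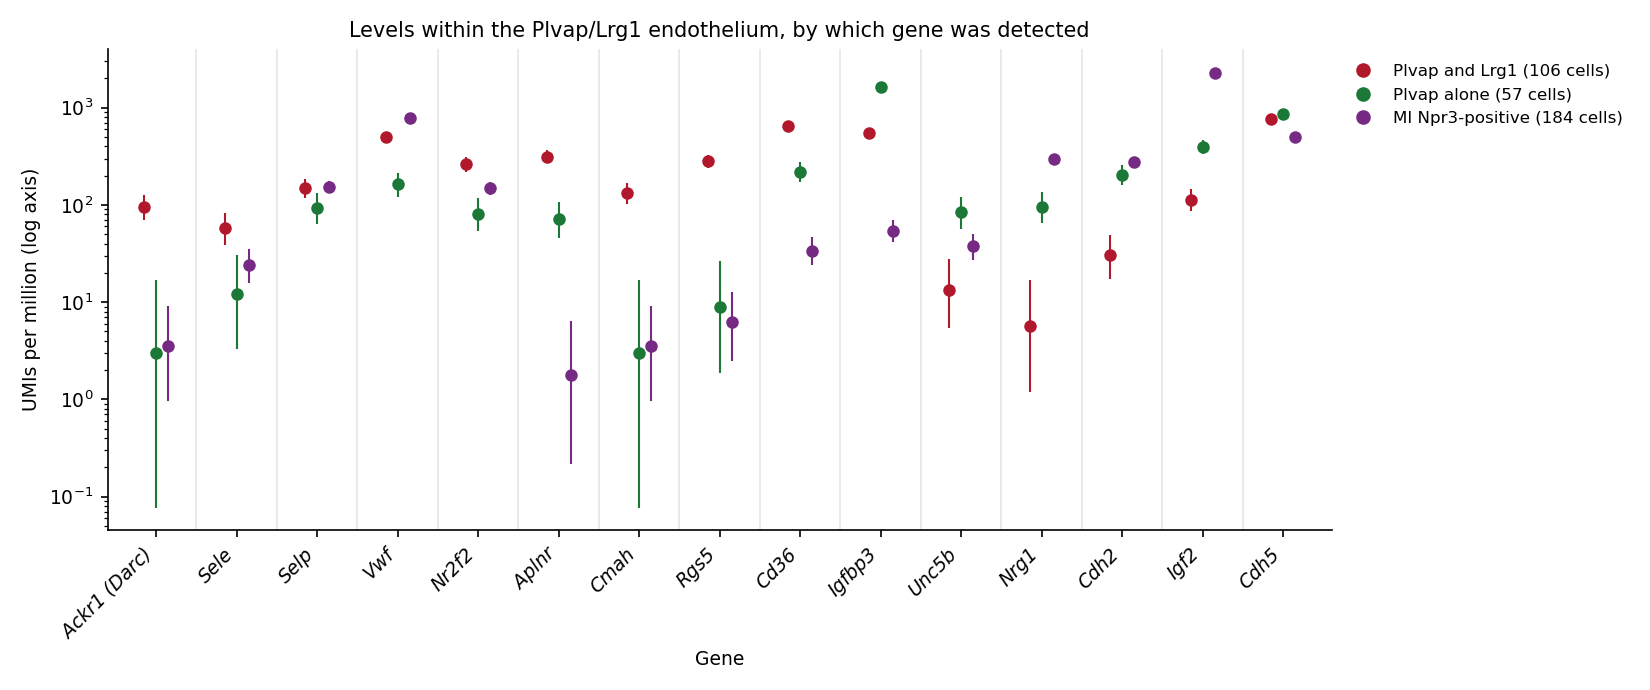
Levels in CPM (log axis) of 15 genes in members with Plvap and Lrg1 (106 cells), members with Plvap alone (57 cells) and Npr3-positive MI endothelial cells (184 cells), with exact Poisson 95% bars. Darc, Nr2f2 and Aplnr stand higher in cells with both transcripts, and Nrg1, Cdh2 and Igf2 in cells with Plvap alone, on the side of the Npr3-positive cells.

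Endothelial cells with Npr3 were also rich in Plvap, at 1112 CPM, with Lrg1 at 77.6 CPM. They did not share the high collagen IV of the other MI endothelial groups. At 500 UMIs per cell Col4a1 was found in 10.9% of them, 53.8% of members and 30.3% of sham cells. Col18a1 was found in 4.35%, 18.5% and 0.845%, and Igfbp3 in 1.63%, 17.3% and 5.87%. Against the 184 Npr3-positive cells, 9.35% of 7301 genes were at least 2-fold higher in members and 9.97% lower. Members were higher for the matricellular protein Sparcl1 (1654 against 30.3 CPM), Col15a1 (302 against 2.67), Aplnr (227 against 1.78), Gpihbp1 (822 against 26.7), Grrp1 (128 against 0.89) and Apln, which had no UMI in Npr3-positive cells and was at least 5.30 log2 units higher. The capillary fatty acid list gave 7 of 9 higher, 1 lower and a median of 3.94 log2 units, so that low as these genes were beside sham, they separated members from Npr3-positive cells. Members were lower for H19 (194 against 3641 CPM), Igf2 (216 against 2287), the membrane raft protein Mal (5.65 against 159), F-spondin (Spon1, 2.26 against 91.8), Smoc1 (48.6 against 626), the transmembrane collagen Col23a1 (30.5 against 419.8) and the Wnt inhibitor Sost (22.6 against 295). Of 20 cell cycle genes 14 were lower, with a median of -1.34, and all 8 cardiomyocyte markers were lower, summing to 33.9 against 521 CPM. Venous genes separated the 2 groups less, with 5 of 12 at least 2-fold higher in members and 2 lower. Their median was 0.60 log2 units, or 0.35 without Lrg1. At 500 UMIs per cell Vwf was found in 34.8% of Npr3-positive cells and 19.1% of members, and Selp in 6.52% and 10.4%.

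Some members carried genes of the Npr3-positive cells. The 9 genes lowest in members against the Npr3-positive cells, Npr3 itself left out, summed to 8182 CPM there, 1126 CPM in members with Plvap alone, 238 CPM in members with both and 141 CPM in MI lymphocytes. At least 5 such UMIs were found in 15 of 57 members with Plvap alone, in 6 of 106 with both and in 167 of 184 Npr3-positive cells. The 5 richest cells held 60.5%, 84% and 12.6% of these UMIs in the same 3 groups. Of the 500 such UMIs in members, H19 gave 172 and Igf2 191. The part of the members with at least 5 such UMIs in the differences between the 2 kinds of member was not tested.

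Members also varied by venous, tip cell and cell cycle genes, in classes chosen after the values had been seen. At least 3 UMIs of Darc, Selp, Vwf and Tmem252 were found in 69 members (39.9%, 32.5% to 47.6%), and at least 3 of Apln, Esm1, Angpt2, Cxcr4, Pgf and Kcne3 in 29 (16.8%, 11.5% to 23.2%), with 11 in both. Lrg1 was found in 55 of the 69 and in 13 of the 29. The tip class carried more of the intermediate filament gene Nes (673 against 82.3 CPM in members without a UMI of these genes) and less Igfbp5 (40.5 against 1024 CPM), with 28.4% of the members' Nes UMIs in 1 cell. Between the same 2 groups the mural markers summed to 746 against 89.1 CPM (8 of 8 genes in each) and the fibroblast markers to 1261 against 5564 CPM. The venous class carried more of the cytokine receptor gene Lifr and the kinase gene Nuak1, by 3.45 and 2.91 log2 units over members with at most 1 venous UMI. Their mural markers summed to 315 against 109 CPM and their fibroblast markers to 2437 against 5277 CPM. Cell cycle genes reached 3 UMIs in 14 members (8.09%, 4.49% to 13.2%), against 5.61% of the other MI endothelial cells, 4.73% of sham and 17.4% of Npr3-positive cells. These shares are not depth-matched, and the cycling members had a median of 9079.5 UMIs. The cycling members carried less of the 14 other pan-endothelial markers than members without a cell cycle UMI (3137 against 4593 CPM). They also carried more fibroblast (6690 against 2050 CPM) and mural (605 against 91.2 CPM) marker transcript. The part of these transcripts in the differences between member classes was not tested.

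The 10 sham cells that met the whole rule were a different set. They held no UMI of Igfbp3, Col18a1 or Darc, where 3 UMIs correspond to 109.9 CPM, a limit that the 529 CPM of Col18a1 and the 1001.7 CPM of Igfbp3 in MI members exceed. Vwf was 622.5 CPM in 8 of the 10, against 42.8 CPM in the other sham endothelial cells, the direction also found in MI. The homeobox factor Meis2 was 549 against 19.3 CPM in 9 of 10 cells, and Bmx 842 against 14.5 CPM in 3 cells. Cpe, carboxypeptidase E, was 1172 against 60.2 CPM. They were lower for Col4a2, with no UMI against 635 CPM, Sparcl1 (366 against 3129 CPM) and Gpihbp1 (219.7 against 1288 CPM). Col18a1 and Col4a2, high in members and in the other MI endothelial cells, thus had no UMI in these sham cells, although 10 cells limit the precision.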

How the data were processed

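The authors deposited 1 table of raw counts per library, with UMIs of each gene in each barcode. The submitters' processing notes name mm10 and Seurat. The aligner, counter and annotation were not given in the sources used here. All deposited barcodes had at least 500 genes. Per the labels' protocols hearts were fixed and embedded, how cells were suspended is not given, and mice were left out by an aortic gradient whose place in this design is not explained. The tables held 8555 MI and 6337 sham barcodes with 33275336 and 11307405 UMIs, of which 8441 and 6303 passed the 25% mitochondrial limit. They shared 5 barcodes.

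Counts were summed over the cells of a group and given as CPM with exact Poisson 95% intervals; log2 ratios have exact conditional binomial intervals and shares Clopper-Pearson intervals. A group at 0 was set to 3 UMIs. PCR and free RNA are not covered. Genes in both tables (21745) with at least 20 UMIs in 1 group counted as measured, and 2-fold was the limit for calling a gene higher or lower. Shares were compared after thinning cells to 500 UMIs. Lymphocytes had at least 2 UMIs of Cd3d, Cd3e, Cd3g, Cd79a, Cd79b and Ms4a1, and at most 3 of the C1q genes. Macrophages had more than 3 C1q UMIs. Both had at most 1 UMI of the endothelial genes of the member rule. Scrublet called 147 MI cells (1.74%) and 334 sham cells (5.30%) as doublets, kept except in an alternative. Genes were named from the 15 highest and 15 lowest against sham (10 and 10 elsewhere) by the interval bound nearest 0, with 50 UMIs or more and detection in 5% of cells, and from the lists described. The members and the 23 gene lists were chosen with earlier results of these data known. Scripts were tested on simulated data. Python 3.11.15, scanpy 1.11.5, scipy 1.17.1, numpy 2.4.6 and matplotlib 3.10.9 were used. Gene positions are from GENCODE vM21. Some genes that the naming rule or the lists hold are not reported here by name.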

Additional observations from a re-analysis of the deposited data

How the results depend on the processing

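Against sham, the list medians kept their direction under the alternatives run for the capillary fatty acid (-2.26 to -1.61), other capillary (-2.52 to -1.98), interferon (-2.45 to -1.66), antigen presentation (-1.81 to -1.48), basement membrane (0.65 to 1.02), venous (0.89 to 3.32), matrix (1.00 to 2.20) and insulin-like growth factor lists (1.11 to 1.75). The mesenchymal list turned from 1.25 to -0.53 when cells were thinned to 500 UMIs, with 11 genes measured. Genes higher than in sham numbered 801, 1973 with no minimum of UMIs and 500 with at least 50, and genes lower 2063, and 1226 of 7253 after thinning, where fewer genes are measured. Against the other MI endothelial cells the venous median went from 1.19 to 0.63 after thinning, with 5 genes. Genes higher there numbered 374, 42 of 763 after thinning and 1045 with no minimum. Genes lower numbered 200, 7 after thinning, 2004 with no minimum and 83 without cells of at least 4 fibroblast or 2 mesothelial UMIs, an alternative chosen after seeing the data. In that alternative C3 (0.13), Enpp2 (2.00), Gas1 (0.13) and Dcn (0.46) reversed, and Upk3b (0.89) reversed after thinning. The cause was not tested. Dcn is a gene of the filter itself, so its reversal is no separate finding. With at least 3 Plvap and Lrg1 UMIs the members were 1.69% of MI cells. Leaving out called doublets, limits on C1q and lymphatic UMIs in sham, members with both transcripts and a limit on fibroblast UMIs in both libraries, the last 3 added after seeing the data, turned none of the list medians past 2-fold. No paired analysis was possible because each group had 1 library. Depth limits genes under 20 UMIs and the 10 sham cells.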

Other observations

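Glycolysis, cytoskeletal, cell cycle and immediate early lists had medians between -0.62 and 0.35 log2 units against sham endothelium, where 7.04% of all measured genes stood 2-fold or more above and 18.1% below. Glycolysis and hypoxia genes gave 4 of 19 at least 2-fold higher, 2 lower and a median of 0.27 log2 units. Hif1a, the oxygen-regulated transcription factor, was 260.0 CPM in members, 50.9 in sham and 78.6 in MI lymphocytes, and Pkm, pyruvate kinase, 312, 117 and 321 CPM. Cytoskeletal genes gave 7 of 25 higher, 3 lower and a median of 0.35. S100a6, a calcium-binding protein, was 1486 CPM in members and 199 in sham, and Marcksl1, an actin-linked kinase substrate, 133 and 28.2 CPM. Cell cycle genes gave 1 of 22 higher, 1 lower and a median of -0.15, and Mki67, the proliferation marker, was 118 against 153 CPM.

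Immediate early genes, which respond within minutes to stimulation and to tissue handling, gave 1 of 15 at least 2-fold higher, 5 lower and a median of -0.62 against sham. Egr1 was 411.5 against 1143 CPM and Fos 335 against 340.1 CPM. Members with both Plvap and Lrg1 were at least 2-fold higher than members with Plvap alone for 8 of 13 of these genes and lower for 0, with a median of 1.23 log2 units. The orphan nuclear receptor Nr4a1 and Fos were among them. The list median against the other MI endothelial cells was -0.71. It turned to 0.44 after thinning to 500 UMIs, to 0.09 with each cell weighted equally, and to 0.53 without cells of at least 4 fibroblast or 2 mesothelial UMIs, an alternative chosen after seeing the data.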
